A study of Homo sapiens with 24 samples.

Results

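OCI-AML3 cells exposed to the RAS inhibitor RMC-7977 for 24 h were compared with OCI-AML3 cells given DMSO, the solvent, by RNA sequencing across all 13033 genes of the expression table. The members of the comparison were 3 libraries of the 24 h group (replicates 1, 2 and 4) and 4 libraries of the DMSO group, 7 of 23 libraries in all. OCI-AML3 is an established human acute myeloid leukaemia line, and its labelled genotype is NRAS Q61L. The 24 h group received 25 nM RMC-7977, the DMSO group received solvent for a time that the labels do not state, and each condition was harvested from the same number of cells. For a pair of shorter comparisons, 4 OCI-AML3 libraries after 2 h at 25 nM were used, together with 4 libraries at 24 h and 4 DMSO libraries of Molm-14, another acute myeloid leukaemia line, labelled FLT3-ITD. Each group is 1 cell line, the labels do not say that its libraries came from separate cultures, and p-values therefore describe the spread between libraries, which may be technical.

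RAS proteins are small GTPases that pass signals from growth factor receptors to the RAF, MEK and ERK kinases when loaded with GTP, and mutations at codons such as that of NRAS in this line hold them in the loaded state. RMC-7977 binds the GTP-loaded form and blocks its contact with RAF. Active ERK induces transcription factors and cyclins that carry cells into the cycle, and it also induces its own antagonists, the DUSP phosphatases and the Sprouty and SPRED proteins, so that transcripts of these feedback genes serve as a readout of the pathway.

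Libraries were made from poly(A) RNA and carry 1 batch label. Effective sizes, recovered from the spacing of low values, were 17.9 to 18.7 M reads at 24 h and 16.9 to 22.4 M reads in DMSO. Log2 CPM correlated at 0.991 to 0.993 across genes among the 24 h libraries, at 0.992 to 0.994 among the DMSO libraries, and at 0.852 to 0.860 between the groups. Among the OCI-AML3 libraries the first principal component held 80.2% of the variance and placed the 2 h libraries between the other groups. The labelled cell type was checked on myeloid markers, of which 12 of 13 were measured (KIT was not analysed here), with a summed level of 7503 to 7896 CPM at 24 h and 3101 to 3310 CPM in DMSO. Much of the rise in this sum came from LYZ, whose levels are given below. The defining markers CD3D, CD3E, MS4A1, HBB and EPCAM of other cell types were not analysed here. The few listed genes of those other types summed to 0.962 to 2.17 CPM at 24 h and 1.42 to 2.61 CPM in DMSO for T and NK cells, and to 3.35 to 6.69 CPM at 24 h and 0.782 to 1.99 CPM in DMSO for B cells, where EBF1 rose. They summed to 38.0 to 40.5 CPM at 24 h and 15.6 to 18.8 CPM in DMSO for erythroid cells and megakaryocytes, where ITGA2B rose, and to 76.6 to 79.8 CPM at 24 h and 32.4 to 36.4 CPM in DMSO for epithelial and stromal cells, where COL1A2 and PECAM1 rose. In such bulk libraries, fewer cells of a type and less RNA per cell cannot be told apart.

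The 24 h response reached a large share of the measured transcriptome, in nearly equal parts in each direction. A gene was called when its Benjamini-Hochberg adjusted p, from limma over all 13033 genes, was below 0.05 and its absolute log2 fold change was at least 1. By this rule 2392 genes rose (18.4%) and 2228 fell (17.1%), together 4620 genes (35.4%). Counts of list members called against DMSO below are to be read beside these shares. The change exceeded 3 on the log2 scale upward in 227 genes and downward in 166. In 5378 genes (41.3%) every 24 h library lay above every DMSO library, in 5342 (41%) every 24 h library lay below, and in 2313 the groups overlapped. Of the called genes, 2385 of the 2392 higher and 2221 of the 2228 lower were among those whose groups did not overlap. Genes that rose had a median level of 18.0 CPM at 24 h and 5.04 CPM in DMSO, genes that fell had 18.2 CPM at 24 h and 59.1 CPM in DMSO, and genes not called had 31.9 CPM at 24 h and 33.1 CPM in DMSO. The median log2 fold change of all genes was 0.01. Scaling by library totals in place of the deposited factors moved this median to 0.18 and the share of called genes that rose to 61.4%, against 51.8% with the deposited scaling.

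**Figure D1:**
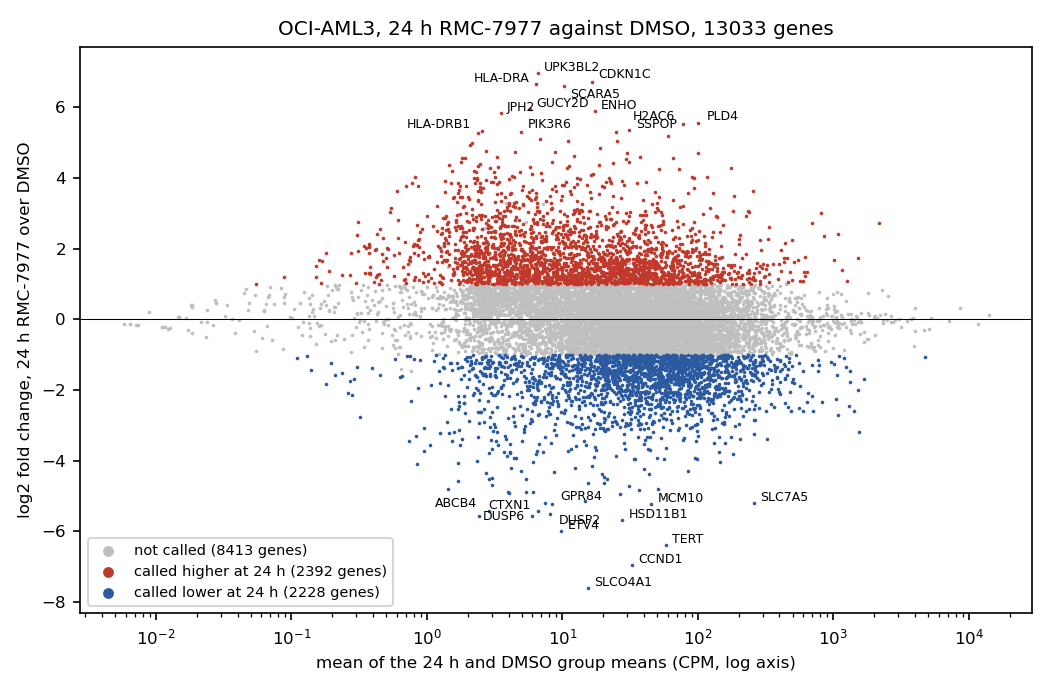
Log2 fold change of 24 h RMC-7977 over DMSO in OCI-AML3 for 13033 genes (vertical axis) against the mean of the 24 h and DMSO group means in CPM (horizontal axis, log scale). Red points are the 2392 genes called higher, blue points the 2228 called lower, and the labelled genes are those with the largest changes at 5 CPM or more in the higher group; the bands of called genes reach about as far up as down.

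The 12 largest falls took in genes of the cell cycle, telomerase, membrane transport and ERK feedback. CCND1 (chr11:69641156-69654474, GRCh38.p14), which encodes the G1 cyclin D1, had 0.573, 0.277 and 0.435 CPM at 24 h, against 64.2, 65.8, 63.9 and 64.0 CPM in DMSO. The groups were far apart, and the log2 fold change was -6.96 ± 0.14 (SE, adjusted p = 1.34e-27). TERT (chr5:1253167-1295068, minus strand), the reverse transcriptase of telomerase, had 1.15, 1.02 and 1.71 CPM at 24 h, against 119, 118, 114 and 107 CPM in DMSO. The groups did not come near each other, and the log2 fold change was -6.39 ± 0.12 (adjusted p = 8.66e-29). SLCO4A1, an organic anion transporter, had 3 reads in all at 24 h and 2497 in DMSO, a ratio of DMSO over 24 h of 566 with an exact 95% interval of 194 to 2747 that covers counting error only. SLC7A5 (chr16:87830023-87869507, minus strand), the light chain of the LAT1 amino acid transporter, had 13.7, 14.2 and 12.8 CPM at 24 h, against 522, 508, 510 and 483 CPM in DMSO. The 24 h libraries were close to each other, and the log2 fold change was -5.21 ± 0.05 (adjusted p = 2.94e-34). The others of the 12 were ETV4, DUSP6, DUSP2 and MCM10, described below, HSD11B1 (-5.67), which regenerates active glucocorticoid, CTXN1 (-5.42), GPR84 (-5.22), a receptor for medium-chain fatty acids, and ABCB4, a phospholipid transporter with 2 reads at 24 h and 452 in DMSO.

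Of the 12 genes with the largest rises, 4 had 2 reads or none in all DMSO libraries together, and the others were measured in DMSO at levels up to the 4.91 CPM of PLD4. Genes as low in DMSO as these 4 may be in the expression table only because they are high elsewhere. CDKN1C (chr11:2883218-2885775), which encodes the cyclin-dependent kinase inhibitor p57, had 33.6, 32.6 and 32.5 CPM at 24 h, against 0.255, 0.139, 0.179 and 0.296 CPM in DMSO. Its 3 treated libraries agreed closely, and the log2 fold change was 6.71 ± 0.30 (adjusted p = 1.79e-18). HLA-DRA (chr6:32439887-32445046), the alpha chain of HLA-DR, had 11.4, 13.0 and 14 CPM at 24 h, against 0, 0.0463, 0 and 0.0593 CPM in DMSO. In reads this was 701 at 24 h and 2 in DMSO, a ratio of 515 with an exact 95% interval of 142 to 4263. PLD4 (chr14:104924879-104937785, plus strand), a nuclease of the endolysosome found in dendritic and other myeloid cells, had 203, 200 and 186 CPM at 24 h, against 4.45, 3.19, 4.91 and 3.79 CPM in DMSO, with a log2 fold change of 5.57 ± 0.09 (adjusted p = 5.72e-30). The groups were far apart. The set of 12 also held SCARA5 (6.61), a scavenger receptor for ferritin, GUCY2D (5.96), a membrane guanylate cyclase, ENHO (5.90), which encodes adropin, PIK3R6 (5.31), a regulatory subunit of PI3K gamma, the histone gene H2AC6 (5.53) and the pseudogene SSPOP (5.35), all as log2 fold changes. JPH2, a junctophilin, had 380 reads at 24 h and 2 in DMSO, and HLA-DRB1, a beta chain of HLA-DR with close paralogs, had 277 reads at 24 h and 2 in DMSO. UPK3BL2 had 719 reads at 24 h and none in DMSO, at least 352-fold higher against a floor of 3 reads over the group, but it has near-identical copies and its value is uncertain.

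**Figure D2:**
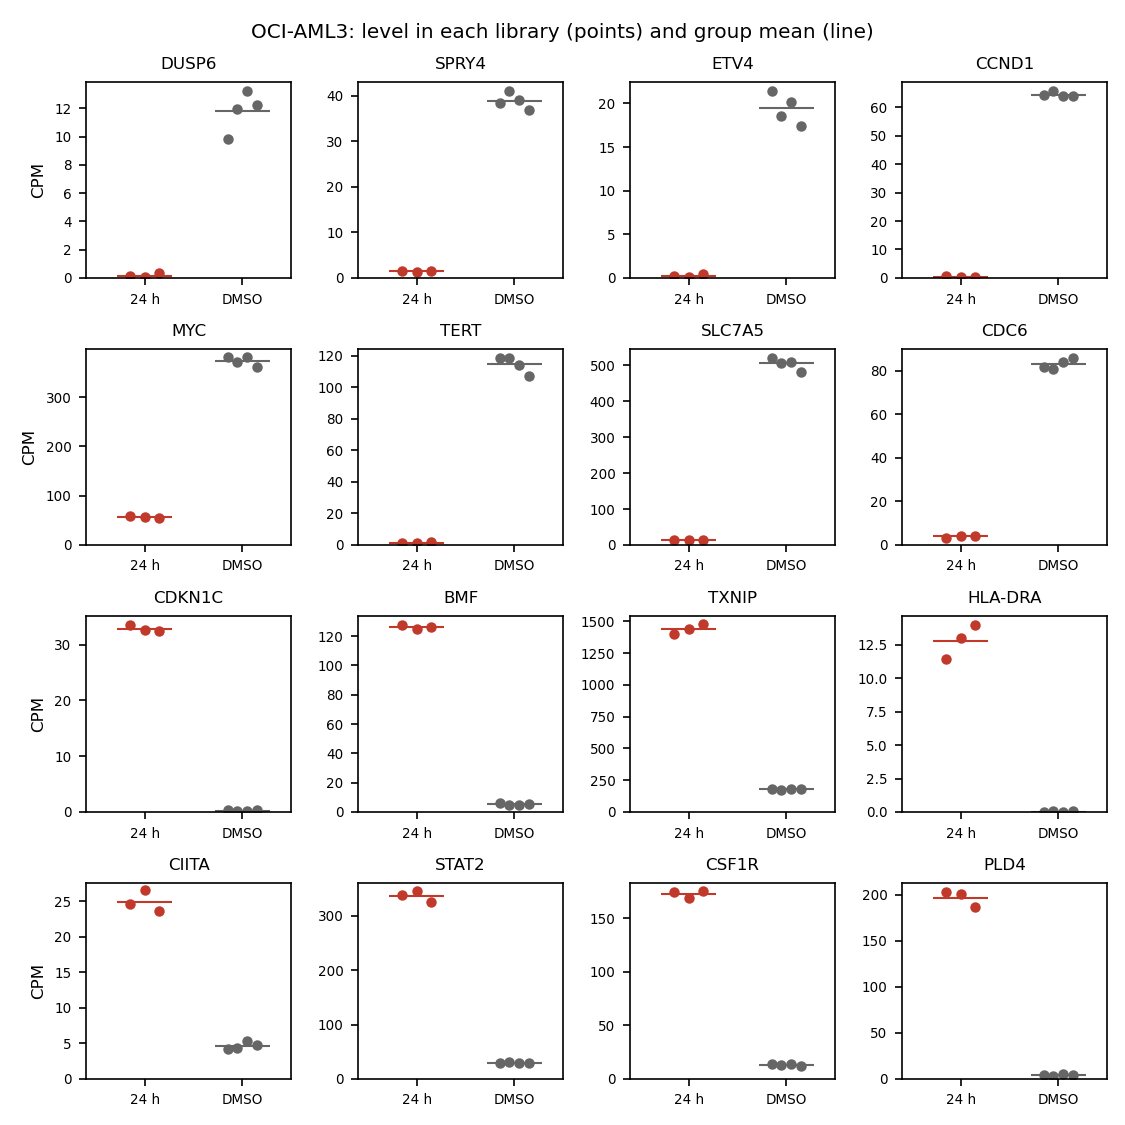
Levels in CPM (vertical axes, each starting at 0) of 16 genes in every OCI-AML3 library, with 24 h RMC-7977 left of DMSO in each panel; points are libraries and bars are group means. The 3 treated and 4 DMSO libraries do not overlap in any panel, with DUSP6, SPRY4, ETV4, CCND1, MYC, TERT, SLC7A5 and CDC6 lower at 24 h and the other 8 genes higher.

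Transcripts that report ERK output stayed low at 24 h. Of 16 measured members of the ERK output and feedback list, 15 fell and 1 rose. The median log2 fold change was -3.21 (-3.36 with the few-read member IER3 at its ratio of summed reads), beside 0.01 over all genes. The list summed to 56.4 to 60.1 CPM at 24 h, against 380 to 393 CPM in DMSO. DUSP6 (chr12:89347235-89352501, minus strand), the cytoplasmic phosphatase that acts on ERK, had 0.124, 0.0534 and 0.332 CPM at 24 h, against 9.86, 12, 13.2 and 12.3 CPM in DMSO. Its log2 fold change was -5.56 ± 0.21 (adjusted p = 2.39e-20), with no overlap between the groups. SPRY4, a Sprouty inhibitor of receptor signalling, had 1.56, 1.28 and 1.60 CPM at 24 h, against 38.3, 41.1, 39.0 and 36.9 CPM in DMSO (-4.62 ± 0.21), and SPRY2 fell less, by 2.29 ± 0.08 on the log2 scale. The ETS factors ETV4 and ETV5 fell to 0.0534 to 0.442 CPM and 0.446 to 0.962 CPM at 24 h, against 17.4 to 21.4 CPM and 11.1 to 12.3 CPM in DMSO. EGR1, an early growth response zinc finger factor, had 2.51, 1.18 and 1.60 CPM at 24 h, against 42.1, 40.9, 40.7 and 40.7 CPM in DMSO (-4.53 ± 0.21), and FOSL1, an AP-1 subunit, fell by 4.31 ± 0.17. Smaller falls were seen in DUSP4 (-2.69), SPRED2 (-1.85), PHLDA1 (-1.75 ± 0.11), ETV1 (-1.38), DUSP5 (-1.23) and SPRED1 (-1.17). IER3 had 3 reads at 24 h and 148 in DMSO. The exception was SPRED3 at 0.773, 1.60 and 1.77 CPM at 24 h, against 0.358, 0.231, 0.0893 and 0.243 CPM in DMSO, a low-level gene whose call did not hold with a pseudocount of 1 CPM.

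The wider immediate early class, genes induced within minutes of a growth stimulus, split in direction. Of 22 members, 7 rose and 6 fell, beside 18.4% of all genes higher and 17.1% lower, with a median of 0.34. DUSP2, a nuclear ERK phosphatase, had 0.334, 0.160 and 0.276 CPM at 24 h, against 17.7, 13.2, 18.4 and 14.6 CPM in DMSO. EGR3 had 0 reads at 24 h and 135 in DMSO, at least 30.6-fold lower against a floor of 3 reads over the group. EGR4 (-3.20), the orphan nuclear receptor NR4A1 (-1.97), ATF3 (-1.17) and FOS (-1.06) also fell. FOSL2, another AP-1 subunit, went the other way at 472, 461 and 473 CPM at 24 h, against 117, 121, 116 and 125 CPM in DMSO (1.97 ± 0.05). KLF4 (2.19), NR4A2 (2.17), KLF2 (1.31), BTG2 (1.25), ZFP36 (1.16) and IER5 (1.02) rose as well, so related factors such as NR4A1 and NR4A2 changed in opposite directions.

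In the RAS pathway list, the genes that rose included 2 GAB adaptors and 3 exchange factors. Of 30 measured genes, 7 rose, a share near the 18.4% of all genes, and 2 fell, beside 17.1% of all genes, with a median of -0.01, which turned to 0.17 with scaling by library totals and 0.07 with median-of-ratios scaling. NRAS, the mutated gene of this line, had 67.3, 69.9 and 71.1 CPM at 24 h, against 81.3, 95.2, 89.9 and 97.2 CPM in DMSO. All treated libraries were lower, but the log2 fold change of -0.38 ± 0.05 (adjusted p = 8.9e-08) was below the threshold of 1. HRAS fell by 1.18 ± 0.08. The adaptor GAB2, which couples receptors to SHP2 and PI3K, had 64.2, 63.1 and 70.5 CPM at 24 h, against 9.09, 8.51, 7.14 and 8.77 CPM in DMSO (2.96 ± 0.07). RASGRP4, a RAS exchange factor of myeloid cells, had 99.3, 95.6 and 91.9 CPM at 24 h, against 12.5, 12.2, 11.9 and 12.5 CPM in DMSO (2.95 ± 0.06). The scaffold KSR1 (1.76), GAB1 (1.56), the exchange factors SOS2 (1.48) and SOS1 (1.28), and RRAS (1.38) rose too. PTPN11, which encodes SHP2, fell by 1.31 ± 0.06.

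**Figure D3:**
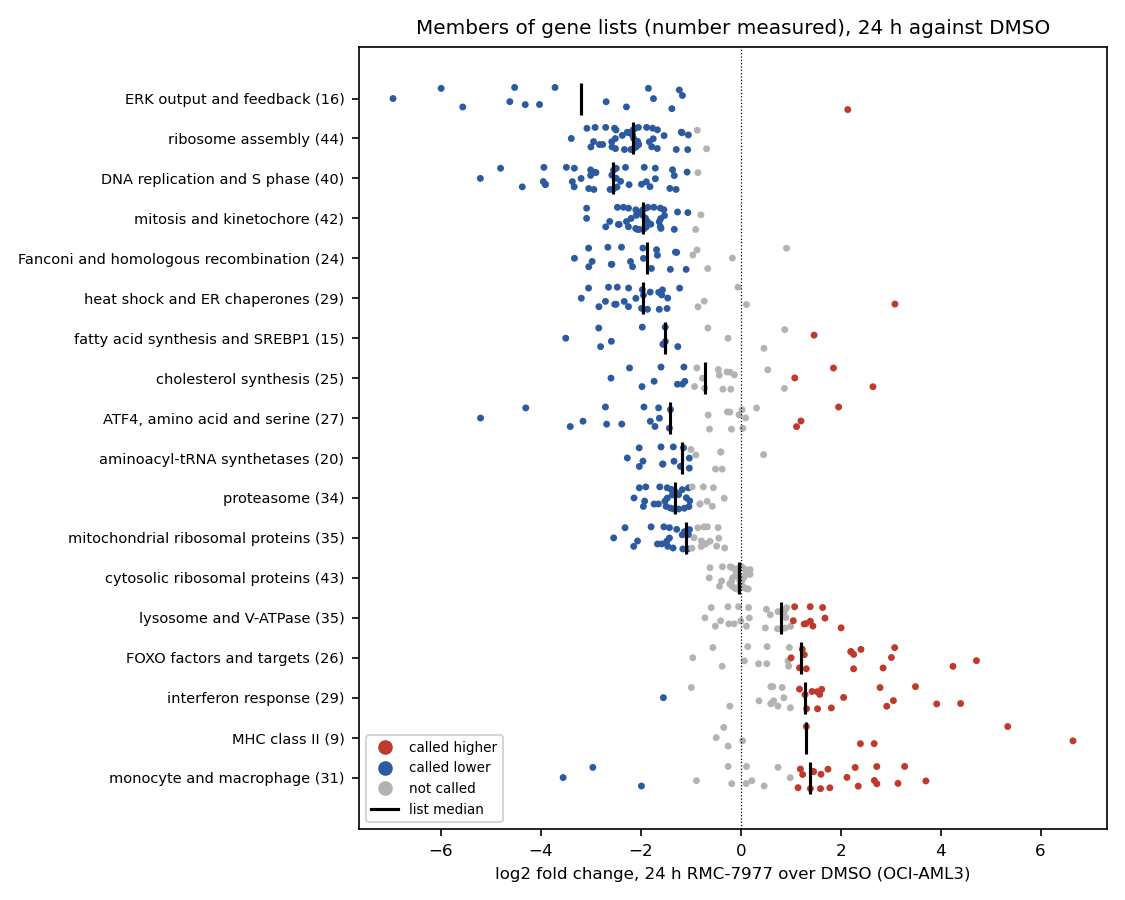
Log2 fold change of 24 h RMC-7977 over DMSO in OCI-AML3 (horizontal axis) for the measured members of each gene list (rows). Points are genes, coloured by whether they were called higher, called lower or not called, and the bars are list medians; the replication, mitosis, ribosome assembly and chaperone rows lie almost wholly left of 0.

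MYC fell at 24 h, and genes for building ribosomes fell with it. MYC, a transcription factor for growth genes, had 58.3, 56.0 and 54.1 CPM at 24 h, against 382, 372, 381 and 362 CPM in DMSO (-2.74 ± 0.05, adjusted p = 1.31e-29). Of the 12 measured genes of the MYC, MAX and MXD network it was the 1 that fell, while MXD1 (1.47), MLXIP (1.22), MXD4 (1.18) and MXI1 (1.14) rose. Over all genes 18.4% were higher and 17.1% lower. MXD1, MXD4 and MXI1 encode partners of MAX that oppose MYC. MAX itself differed by 0.12. In the ribosome assembly list, nucleolar factors and RNA polymerase I subunits, 42 of 44 members fell and none rose, with a median of -2.15, and in all 44 every 24 h library was below every DMSO library. The RNA helicase DDX21 had 34.4, 34.3 and 37.6 CPM at 24 h, against 337, 390, 358 and 409 CPM in DMSO (-3.39 ± 0.06). MRTO4, an assembly factor of the large subunit, had 22.1, 20.3 and 20.9 CPM at 24 h, against 171, 163, 176 and 167 CPM in DMSO (-3.0 ± 0.05). POLR1G (-3.08), LYAR (-2.95), NOLC1 (-2.92), NOP16 (-2.83) and nucleolin, NCL (-2.25), fell as well, and the uncalled members were NPM1 (-0.87) and UBTF (-0.68). Cytosolic ribosomal proteins, the structural parts of the same particle, did not follow: none of 43 was called in either direction, and their log2 fold changes ran from -0.63 (RPL7A) to 0.19 (RPL28). Their median of -0.03 turned to 0.14 with scaling by library totals and 0.04 with median-of-ratios scaling. Mitochondrial ribosomal proteins had 21 of 35 members lower and none higher, with a median of -1.10.

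Promoters of genes from the replication, mitosis, ribosome assembly and interferon lists are shown because each carries a sequence element known for its class. Sequences are from RefSeq on GRCh38.p14 and span 250 bases before to 50 bases after the transcript start, written 5′ to 3′ on the strand of the gene, with the match of the searched motif in capitals; 10440 of the 13033 genes had one. A match is a description and not evidence of binding. For the E2F motif (TTTGGCGC or TTTCGCGC, either strand), CDC6, which loads the replicative helicase, is on chr17:40287629-40287928, plus strand, and MCM2, a subunit of that helicase, is on chr3:127598161-127598460, plus strand, with overlapping matches on both strands. For the CHR motif of mitotic genes (TTTGAA, either strand), the kinetochore gene SPC25 is on chr2:168890381-168890680, minus strand, and the spindle checkpoint gene MAD2L1 on chr4:120066799-120067098, minus strand. For the E-box bound by MYC and MAX (CACGTG), MRTO4 is on chr1:19251555-19251854, plus strand. For the interferon-stimulated motif (GAAA, 2 bases of any kind, GAAA, either strand), IFIT1, which binds foreign RNA, is on chr10:89392373-89392672, plus strand, and both of its matches lie on the opposite strand.
CDC6: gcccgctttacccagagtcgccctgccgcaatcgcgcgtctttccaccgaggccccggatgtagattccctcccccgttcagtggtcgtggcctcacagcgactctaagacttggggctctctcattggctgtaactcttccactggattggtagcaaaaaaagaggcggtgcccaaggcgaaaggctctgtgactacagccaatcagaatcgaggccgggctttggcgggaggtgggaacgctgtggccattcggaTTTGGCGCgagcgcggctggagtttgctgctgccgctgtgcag
MCM2: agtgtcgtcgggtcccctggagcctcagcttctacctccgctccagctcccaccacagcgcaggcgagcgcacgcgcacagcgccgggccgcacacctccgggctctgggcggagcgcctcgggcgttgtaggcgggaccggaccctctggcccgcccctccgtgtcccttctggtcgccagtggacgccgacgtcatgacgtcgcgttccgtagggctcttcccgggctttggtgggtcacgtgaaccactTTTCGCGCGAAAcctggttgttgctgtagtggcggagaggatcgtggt
SPC25: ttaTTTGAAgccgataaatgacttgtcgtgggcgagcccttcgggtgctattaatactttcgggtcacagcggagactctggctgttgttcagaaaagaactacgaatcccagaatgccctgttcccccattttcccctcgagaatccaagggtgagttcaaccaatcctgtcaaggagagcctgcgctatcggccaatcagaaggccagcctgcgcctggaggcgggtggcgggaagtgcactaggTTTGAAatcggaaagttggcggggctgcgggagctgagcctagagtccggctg
MAD2L1: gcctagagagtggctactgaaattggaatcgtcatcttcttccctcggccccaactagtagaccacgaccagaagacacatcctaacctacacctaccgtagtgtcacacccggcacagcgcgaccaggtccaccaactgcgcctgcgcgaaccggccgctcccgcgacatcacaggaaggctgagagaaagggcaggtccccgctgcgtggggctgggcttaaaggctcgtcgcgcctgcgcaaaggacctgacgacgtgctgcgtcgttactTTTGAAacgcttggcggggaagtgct
MRTO4: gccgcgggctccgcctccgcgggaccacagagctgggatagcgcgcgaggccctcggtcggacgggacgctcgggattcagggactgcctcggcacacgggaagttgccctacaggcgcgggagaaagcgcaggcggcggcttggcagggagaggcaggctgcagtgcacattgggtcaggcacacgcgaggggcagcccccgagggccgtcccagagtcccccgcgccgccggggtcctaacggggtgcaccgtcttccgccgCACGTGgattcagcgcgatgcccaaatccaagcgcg
IFIT1: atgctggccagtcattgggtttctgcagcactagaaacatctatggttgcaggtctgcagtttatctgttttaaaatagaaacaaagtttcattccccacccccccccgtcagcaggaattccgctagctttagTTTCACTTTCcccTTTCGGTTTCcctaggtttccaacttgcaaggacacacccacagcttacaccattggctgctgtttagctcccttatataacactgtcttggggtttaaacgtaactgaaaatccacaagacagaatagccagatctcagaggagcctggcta

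The E2F motif was found in 10 of 36 promoters of the replication list (27.8%), beside 2.14% of all promoters of the same length. TTTGAA was found in 26 of 35 promoters of the mitosis list (74.3%), beside 9.88% of all. CACGTG was found in 13 of 36 promoters of the ribosome assembly list (36.1%), beside 10.2% of all, and the interferon-stimulated motif in 13 of 22 promoters of the interferon list (59.1%), beside 2.98% of all. CACGTG was not particular to a list that fell: it was also in 7 of 22 promoters of the lysosome list (31.8%), where no member was called lower. Over the whole table the shares differed less between genes that rose, fell or were not called. E2F matches were in 1.23% of promoters of genes that rose, 3.73% of those that fell and 1.95% of those not called. The interferon-stimulated motif was in 4.40% of promoters of genes that rose, 2.36% of those that fell and 2.77% of those not called. For CACGTG the shares were 8.92% of genes that rose, 12.45% of those that fell and 9.97% of those not called. For TTTGAA they were 10.31%, 12.94% and 8.94% in the same order.

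DNA replication genes fell almost without exception. Of 40 members, 39 fell and none rose, with a median of -2.56, and in all 40 the 24 h libraries lay below the DMSO libraries. CDC6, whose promoter is printed above, had 3.40, 4.23 and 4.14 CPM at 24 h, against 81.5, 80.8, 83.9 and 86.0 CPM in DMSO (-4.37 ± 0.06, adjusted p = 4.64e-31). MCM10, which helps activate the helicase, had 1.95, 2.40 and 2.49 CPM at 24 h, against 88.0, 88.4, 83.3 and 91.9 CPM in DMSO (-5.21 ± 0.07). CDC45, another helicase activator, had 3.23, 3.53 and 3.46 CPM at 24 h, against 108, 93.6, 99.2 and 92.8 CPM in DMSO (-4.81). These replication initiation factors fell furthest within the list. The helicase subunit MCM2 had 31.6, 30.3 and 32.8 CPM at 24 h, against 328, 309, 337 and 304 CPM in DMSO (-3.33). GINS2 (-3.95), the ribonucleotide reductase subunit RRM2 (-3.94), the checkpoint mediator CLSPN (-3.91), the flap endonuclease FEN1 (-3.91) and thymidylate synthase TYMS (-3.33) showed falls of the same order, and the licensing factor CDT1 was the 1 uncalled member (-0.86).

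Mitotic genes fell as uniformly, with 40 of 42 lower, none higher and a median of -1.95. SPC25, a subunit of the NDC80 kinetochore complex, had 2.73, 2.62 and 3.81 CPM at 24 h, against 25.7, 25.8, 26.1 and 27.8 CPM in DMSO (-3.09 ± 0.10). MAD2L1 had 13.4, 16.6 and 15.6 CPM at 24 h, against 121, 130, 137 and 129 CPM in DMSO (-3.09 ± 0.07). Both groups were tight and far apart. Cyclin A2, CCNA2 (-2.70), CDC20 (-2.43), CDK1 (-2.10), FOXM1 (-2.10), CCNB1 (-2.06) and MKI67 (-2.05) were lower, and BUB3 (-0.90) and ASPM (-0.80) were the uncalled members. In the Fanconi and homologous recombination list 19 of 24 fell and none rose, with a median of -1.87, among them EXO1 (-3.33), RAD54L (-3.05) and BRCA1 (-2.66).

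Of 27 measured regulators of the G1 phase, 15 fell, 4 rose and 8 were not called, beside 17.1% of all genes lower and 18.4% higher. The 4 rises were all inhibitors, a share not above that over all genes, and other inhibitors did not rise. The phosphatase CDC25A, which activates cyclin-dependent kinases, had 4.18, 3.37 and 4.37 CPM at 24 h, against 74.6, 70.7, 76.7 and 79.7 CPM in DMSO (-4.22 ± 0.08). E2F1 (-3.54), CCNE2 (-3.12), CCNE1 (-2.97), CDK4 (-1.95) and CDK2 (-1.68) also fell with CCND1. CDKN2B, which encodes p15, had 15.8, 13.0 and 16.6 CPM at 24 h, against 3.17, 1.94, 2.10 and 2.96 CPM in DMSO (2.55 ± 0.23), and CDKN1A, which encodes p21 (1.21), CDKN2D (1.02) and CDKN1C rose. An inhibitor that fell was CDKN2C (-1.07), and CDKN1B, which encodes p27, differed by 0.36 and was not called. In the telomerase list 5 of 16 fell and 1 rose, beside 17.1% of all genes lower and 18.4% higher. Besides TERT, the falls were in the small nucleolar RNP proteins DKC1 (-2.20), NHP2 (-2.10), GAR1 (-2.05) and NOP10 (-1.17), which the ribosome assembly list shares; shelterin genes such as TERF1 (-0.10) and POT1 (0.28) were not called.

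Within the BCL2 family, 3 of 16 genes rose and 3 fell, shares near the 18.4% of all genes that rose and the 17.1% that fell. The BH3-only gene BMF (chr15:40087890-40108879, minus strand), a pro-apoptotic antagonist of BCL2 proteins, had 128, 125 and 126 CPM at 24 h, against 6.34, 4.91, 4.87 and 5.10 CPM in DMSO (4.56 ± 0.07, adjusted p = 1.4e-30). BBC3, which encodes PUMA, rose by 1.96 ± 0.09. BCL2L11, which encodes BIM, had 106, 117 and 147 CPM at 24 h, against 54.2, 61.1, 59.2 and 53.5 CPM in DMSO (1.10 ± 0.14), and without 24 h replicate 4 its log2 fold change was 0.97, below the threshold. The survival gene BCL2 had 53.4, 53.3 and 56.4 CPM at 24 h, against 145, 152, 149 and 157 CPM in DMSO (-1.47 ± 0.06). BCL2A1, a survival gene, had 3 reads at 24 h and 266 in DMSO, and PMAIP1, which encodes the pro-apoptotic NOXA, fell by 2.65 ± 0.09. MCL1 (-0.42) and BCL2L1 (-0.24, adjusted p = 0.0075) were not called. Of 25 p53 targets and regulators, 6 rose and 3 fell, with TP53INP1 (2.99) the largest rise and PLK3 (-2.88) the largest fall, while MDM2 (0.01) was not called.

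FOXO factors, which AKT holds in the cytoplasm and which induce genes of quiescence and catabolism, and their targets rose in 15 of 26 cases and fell in none, with a median of 1.20. YPEL3, a growth-restraining gene, had 209, 185 and 180 CPM at 24 h, against 7.14, 8.0, 7.42 and 6.22 CPM in DMSO (4.72 ± 0.31). KLHL24, an adaptor of a ubiquitin ligase, had 91.3, 101 and 101 CPM at 24 h, against 4.76, 5.64, 5.03 and 4.80 CPM in DMSO (4.25 ± 0.06). TXNIP (chr1:145992435-145996579, minus strand), an alpha-arrestin that restrains glucose uptake, averaged 1442 CPM at 24 h and 178.2 CPM in DMSO (3.02 ± 0.04, adjusted p = 1.52e-32). The ubiquitin ligase gene FBXO32 (3.08), CREBRF (2.85), PIK3IP1 (2.41) and the factors FOXO4 (2.26), FOXO1 (1.18) and FOXO3 (1.01) rose. GADD45A, at -0.96, became the 1 fall of the list without DMSO replicate 4, 24 h replicate 2 or 24 h replicate 4. The other alpha-arrestins ARRDC1 to ARRDC4 were not called. The forkhead motif GTAAACA was in 3 of 22 promoters of the list, beside 2.35% of all.

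The class II list held 16 genes of antigen presentation and its regulators, of which 9 were measured. Of these 9, 5 rose, HLA-DRA and HLA-DRB1 from close to 0 reads. Genes as low in DMSO as these 2 may be in the expression table only because they are high elsewhere. The shares over all genes are therefore no fair background for them. The class I list had rises and falls near the shares over all genes. Class II molecules present peptides to helper T cells, and CIITA (chr16:10866206-10943021) is their master coactivator. CIITA had 24.6, 26.5 and 23.6 CPM at 24 h, against 4.25, 4.31, 5.39 and 4.73 CPM in DMSO (2.39 ± 0.11, adjusted p = 2.08e-18). The invariant chain CD74 had 260, 233 and 232 CPM at 24 h, against 102, 94.2, 99.6 and 92.8 CPM in DMSO (1.31), and the peptide editor HLA-DMA had 4.74, 4.97 and 5.25 CPM at 24 h, against 0.562, 0.740, 0.625 and 0.889 CPM in DMSO (2.67 ± 0.29). HLA-DRA and HLA-DRB1 were the other rises and none fell, while RFX5 (-0.34), RFXAP (-0.25) and RFXANK (0.04), the subunits of the promoter-bound RFX complex, were not called. The filter of 5 CPM in at least 3 libraries left 3 of the 5 rises. AGCAACA, the core of the X box that this complex binds, was in 1 of 7 promoters of the list, beside 3.35% of all. The 7 include RFX5, RFXAP and RFXANK, while HLA-DRA and CIITA had no promoter sequence to search. The share therefore says little about the class II genes themselves. In the class I list 3 of 18 rose, HLA-F (1.43), the peptide transporter TAP1 (1.12) and the trimming peptidase ERAP2 (1.03, or 0.995 and not called without 24 h replicate 2), and 3 fell, CALR (-2.32), TAP2 (-1.58) and PDIA3 (-1.30), beside 18.4% of all genes higher and 17.1% lower. HLA-B (0.61), HLA-C (0.73) and B2M (0.77) were higher in every 24 h library without reaching the threshold.

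Interferon response genes rose in 16 of 29 cases, fell in 1, and had a median of 1.29. STAT2 (chr12:56341597-56360107, minus strand), which with IRF9 is part of the complex that drives these genes, had 339, 346 and 325 CPM at 24 h, against 28.5, 31.2, 29.3 and 30 CPM in DMSO (3.50 ± 0.05, adjusted p = 2.24e-30). IRF9 (1.81) and IRF7 (2.06) rose as well. SAMD9L, an antiviral and growth-restraining gene, had 48.3, 53.6 and 54.2 CPM at 24 h, against 3.06, 4.37, 2.63 and 3.50 CPM in DMSO (3.92 ± 0.11). IFIT1, whose promoter is printed above, had 3.29, 3.58 and 3.65 CPM at 24 h, against 0.409, 0.278, 0.491 and 0.533 CPM in DMSO (2.79 ± 0.28). IFIT2 (4.40), RSAD2 (3.05) and OAS1 (2.92) also rose. Other common members were below the threshold, among them ISG15 (0.60), IFI6 (0.61), MX1 (0.83) and IRF1 (0.36), and USP18, which restrains interferon signalling, fell to 0.711, 1.44 and 2.04 CPM at 24 h, against 3.77, 3.73, 4.67 and 3.79 CPM in DMSO. BST2, at -0.99, became a further fall without DMSO replicate 2, DMSO replicate 4 or 24 h replicate 1.

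Monocyte and macrophage genes were higher at 24 h for the most part, with 19 of 31 up, 3 down and a median of 1.39, and their sum was 7875 to 8420 CPM at 24 h, against 2132 to 2187 CPM in DMSO. CSF1R (chr5:150053295-150113365, minus strand), the receptor for macrophage colony-stimulating factor, had 174, 168 and 175 CPM at 24 h, against 13.8, 13.1, 13.5 and 12.1 CPM in DMSO (3.71 ± 0.06). Much of the rise in the sum came from lysozyme, LYZ. It had 3584, 3818 and 3976 CPM at 24 h, against 559, 571, 566 and 599 CPM in DMSO (2.72 ± 0.05). S100A8 had 85.4, 80.8 and 83.8 CPM at 24 h, against 8.59, 9.90, 9.03 and 6.76 CPM in DMSO (3.28 ± 0.10). FCGR2B (3.15), VCAN (2.72), TYROBP (2.67), the costimulator CD86 (2.29), ITGAM, which encodes CD11b (1.78), and CD68 (1.60) rose. Among the genes that fell were the defining monocyte gene CD14 (-3.56) and the high-affinity Fc receptor FCGR1A (-2.96) with 5.02, 5.29 and 6.69 CPM at 24 h against 47.6, 40.7, 48.4 and 41.8 CPM in DMSO. In the dendritic list 5 of 10 rose, PLD4, AXL (2.93), CLEC10A (2.32), IL3RA (2.03) and FLT3, while BATF3 (-4.21) fell. Granulocyte genes were mixed, 4 up and 4 down of 15, beside 18.4% of all genes higher and 17.1% lower. CSF3R (2.27) was up, MMP9 (-3.39) and CYBB (-1.88) were down, and the granule enzymes MPO (-0.51) and ELANE (0.10) were not called. Few progenitor factors passed the threshold: 2 of 23 rose, CEBPB (1.48) and PBX3 (1.23), ERG (-1.28) fell, and HOXA9 (0.49) and MEIS1 (0.38) were not called. Their median was 0.40, and in 15 of the 23 every 24 h library lay above every DMSO library, beside 41.3% of all genes.

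Receptors for growth factors and cytokines rose in 10 of 28 cases and fell in 2, beside 18.4% of all genes higher and 17.1% lower. CSF2RA, the receptor subunit for GM-CSF, had 25.3, 25.1 and 22.5 CPM at 24 h, against 1.63, 1.46, 1.38 and 1.24 CPM in DMSO (4.0 ± 0.08). FLT3 had 164, 173 and 174 CPM at 24 h, against 61.7, 57.9, 61.4 and 60.6 CPM in DMSO (1.49 ± 0.04). The receptor kinases AXL (2.93), FGFR3 (2.76), MERTK (2.21) and FGFR1 (2.13) rose, as did IL10RA (2.84). IL7R (-4.20) and TGFBR1 (-1.84) fell. Inflammatory ligands and NF-kB targets were split, 5 up and 8 down of 21, beside the same shares over all genes. TNF had 1.73, 1.60 and 1.44 CPM at 24 h, against 51.2, 54.5, 53.5 and 49.1 CPM in DMSO (-4.95 ± 0.10), and CXCL8 (-3.14), CXCL1 (-3.10), the feedback inhibitor TNFAIP3 (-2.31) and IL1B (-1.77) fell. TRAF1 (2.48), TNFAIP2 (1.72), NFKBIZ (1.69) and VEGFA (1.62) rose.

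Most of the genes measured in each of the lists of fatty acid synthesis, amino acid metabolism, aminoacyl-tRNA synthetases, chaperones and the proteasome fell, beside 17.1% of all genes. In the fatty acid list 10 of 15 fell and 1 rose, with a median of -1.51: fatty acid synthase, FASN, had 178, 165 and 170 CPM at 24 h, against 938 to 1098 CPM in DMSO (-2.59 ± 0.07). The desaturases FADS2 (-3.50), SCD (-2.84) and FADS1 (-2.81) and their regulator SREBF1 (-1.51) fell, and ACSS2 (1.47) rose. Of 25 cholesterol genes 9 fell, among them DHCR7 (-2.23), and 3 rose, among them the efflux pump ABCA1 (2.65) and MYLIP (1.86), which degrades the LDL receptor. Of 27 genes of ATF4, amino acid and serine metabolism 14 fell and 3 rose: PSAT1, of serine synthesis, had 8.36, 8.25 and 7.63 CPM at 24 h, against 156, 164, 166 and 159 CPM in DMSO (-4.30 ± 0.04), and PHGDH (-3.16), PYCR1 (-2.71), CBS (-2.68) and ASNS (-1.81) fell. The cystine transporter SLC7A11 differed from these, at 69.3, 67.3 and 72.9 CPM at 24 h, against 14.2, 19.8, 18.4 and 19.7 CPM in DMSO (1.96 ± 0.09), and ATF4 (-0.03) was not called. Aminoacyl-tRNA synthetases fell in 13 of 20 cases. Glycolysis and pentose phosphate genes fell in 14 of 30 with 2 up (1 without DMSO replicate 3 or 24 h replicate 4), led by the lactate carrier SLC16A1 (-2.64) and LDHA (-2.16). Respiratory chain subunits fell in 7 of 36 (3 with scaling by library totals), near the share over all genes. Their median was -0.67, and in 34 of the 36 every 24 h library lay below every DMSO library, beside 41% of all genes. Most of these shifts were thus below the threshold.

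Of 29 chaperones, 24 fell and 1 rose, with a median of -1.95. The constitutive HSP70 gene HSPA8 had 305, 301 and 309 CPM at 24 h, against 2686 to 2917 CPM in DMSO (-3.19 ± 0.04), and HSPE1 (-3.05), HSP90AA1 (-2.71) and the ER chaperone HSPA5 (-2.47) fell with it. The inducible gene HSPA6 had 88.7, 91.4 and 90.5 CPM at 24 h, against 11, 10.3, 10.8 and 10.1 CPM in DMSO (3.08 ± 0.12), although its paralogs HSPA1A (-2.25) and HSPA1B (-2.52) fell. HSPA1A and HSPA1B are near-identical to each other, so the split between them is uncertain. Proteasome subunits fell in 26 of 34 cases, with a median of -1.31. Lysosomal genes rose in 10 of 35 cases, beside 18.4% of all genes, and fell in none, with a median of 0.80: GRN, which encodes progranulin, had 1613, 1548 and 1471 CPM at 24 h, against 528, 454, 501 and 441 CPM in DMSO (1.69 ± 0.06), and SGSH (2.01), PSAP (1.64), CTSL (1.39) and the regulator TFEB (1.30) rose. Scaling by library totals raised the lysosomal count to 16. Autophagy genes rose in 6 of 26 cases (10 with library totals), near the share over all genes, led by GABARAPL1 (2.77), WIPI1 (1.69) and SQSTM1 (1.48). Their median was 0.73, and in 20 of the 26 every 24 h library lay above every DMSO library, beside 41.3% of all genes. Among 33 chromatin modifiers 7 rose and 4 fell (2 with library totals), and the paralogous H3K27 methyltransferases moved apart: EZH2 had 40.6, 46.6 and 47.8 CPM at 24 h, against 112, 110, 106 and 116 CPM in DMSO (-1.30 ± 0.05), and EZH1 had 95, 94.5 and 101 CPM at 24 h, against 28, 26, 22.4 and 25.2 CPM in DMSO (1.93 ± 0.07). DNMT1 (-1.58) fell, and KDM7A (2.65), HDAC5 (1.51) and TET2 (1.47) rose.

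To show what was already present at 2 h, the 24 h libraries were set against the 2 h libraries. The labels give no time for the DMSO libraries, so time on the drug and time in culture cannot be told apart here. At 24 h 1516 genes were higher (11.6%) and 1423 lower (10.9%) than at 2 h, while 421 genes (3.23%) had risen and 437 (3.35%) had fallen at 2 h relative to the same DMSO libraries, together 6.58%. ERK output was low at both times: 13 of 16 members had fallen at 2 h (median -2.38), and 3 were lower and 2 higher at 24 h than at 2 h. DUSP6 averaged 11.8 CPM in DMSO, 0.201 CPM at 2 h and 0.170 CPM at 24 h, with no call between the times. SPRY4 was higher at 24 h than at 2 h by 1.08, which became 0.96 without 2 h replicate 4 and lost the call, and ETV4 was lower by 5.08. Replication genes had no member called at 2 h (median -0.13), and 39 of 40 were lower at 24 h than at 2 h; CDC6 averaged 83.0 CPM in DMSO, 54.6 CPM at 2 h and 3.92 CPM at 24 h. Of the mitosis list, 41 of 42 were lower at 24 h than at 2 h, and 1 had risen at 2 h. Ribosome assembly was between these, with 19 of 44 down at 2 h (median -0.88) and 26 lower at 24 h than at 2 h, and MYC averaged 374 CPM in DMSO, 72.3 CPM at 2 h and 56.1 CPM at 24 h. Of the FOXO list 10 of 26 had risen at 2 h and of the interferon list 9 of 29, whereas monocyte genes had 1 riser at 2 h and 20 of 31 higher at 24 h than at 2 h. LYZ averaged 574 CPM in DMSO, 574 CPM at 2 h and 3792 CPM at 24 h. By the naming rule, the largest increases over 2 h were HLA-DRA, the histone gene H2AC19, JPH2, HLA-DRB1 and MUC20, and the largest decreases were SLCO4A1, CTXN1, ETV4, TERT and CDC45. H2AC19 read 52.0 to 57.8 CPM at 24 h, but 0, 7.19, 0 and 7.75 CPM at 2 h and 0, 5.27, 6.74 and 5.33 CPM in DMSO. Its near-identical copy H2AC18 read 5.86, 0, 7.27 and 0 CPM in the same 2 h libraries and 5.17, 0, 0 and 0 CPM in the same DMSO libraries, so that 1 of the pair was at 0 wherever the other was not, and the fitted fold changes of H2AC19 are uncertain.

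**Figure D4:**
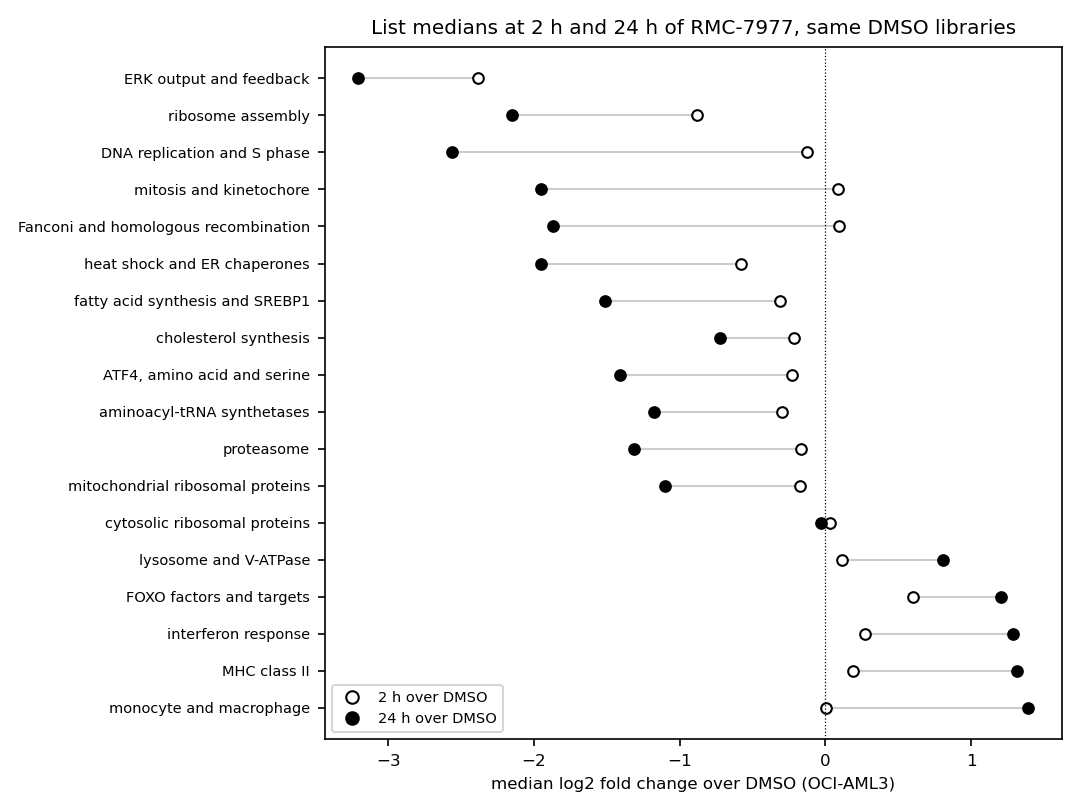
Median log2 fold change over DMSO (horizontal axis) of the gene lists (rows) in OCI-AML3 at 2 h (open circles) and 24 h (filled circles), both relative to the same DMSO libraries; each circle is the median over the measured members. ERK output is at -2.38 at 2 h and -3.21 at 24 h, replication at -0.13 at 2 h and -2.56 at 24 h, and monocyte genes at 0.00 at 2 h and 1.39 at 24 h.

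The 24 h response was larger in OCI-AML3 than in Molm-14 for most proliferation lists, by a test of the difference in log2 fold change (OCI-AML3 minus Molm-14) in the same fit. This difference was called positive in 1054 genes (8.09%) and negative in 1271 (9.75%), and 1481 genes (11.4%) rose and 856 (6.57%) fell in Molm-14 itself. Of the ERK output list, 12 of 16 members had a negative difference. DUSP6 had a log2 fold change of -5.56 in OCI-AML3 and -0.05 in Molm-14, a difference of -5.51 (adjusted p = 4.97e-16), and CCND1 had -6.96 in OCI-AML3 and -1.79 in Molm-14. EGR1 was the other way round, -4.53 in OCI-AML3 and -5.72 in Molm-14, and this difference of 1.19 became 0.92 and lost the call without OCI-AML3 24 h replicate 1. Negative differences covered 28 of 40 replication genes, 27 of 42 mitosis genes and 21 of 44 ribosome assembly genes, and TERT had -6.39 in OCI-AML3 and -1.43 in Molm-14.

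Among the metabolic lists, the cholesterol median had opposite signs in the 2 lines. Cholesterol genes had a median of -0.72 in OCI-AML3 and 0.55 in Molm-14, with a negative difference in 14 of 25, and glycolysis genes -0.76 in OCI-AML3 and 0.03 in Molm-14, with a negative difference in 15 of 30. The other medians had the same sign in both lines, at -1.51 in OCI-AML3 and -0.21 in Molm-14 for fatty acid synthesis, -1.41 in OCI-AML3 and -1.60 in Molm-14 for ATF4 and amino acid genes, and -0.67 in OCI-AML3 and -0.50 in Molm-14 for the respiratory chain. SLC7A11 rose by 1.96 in OCI-AML3 and fell by 3.08 in Molm-14, on the log2 scale. Among the monocyte genes LYZ had 2.72 in OCI-AML3 and 0.12 in Molm-14, and FCGR2B had 3.15 in OCI-AML3 and 5.65 in Molm-14, while CSF1R had 3.71 in OCI-AML3 and 3.64 in Molm-14, a difference that was not called. The class II list had a positive difference in 3 of 9 genes. MAFA, a basic leucine zipper factor, averaged 0.238 CPM at 24 h and 0.183 CPM in DMSO in OCI-AML3, and 31.7 CPM at 24 h and 0.181 CPM in DMSO in Molm-14. LGALS12, a galectin, had -4.83 in OCI-AML3, and in Molm-14 it was low at both 24 h (0.713 CPM) and in DMSO (0.434 CPM). NCF1C is a copy of NCF1 and its difference of -5.33 is uncertain.

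**Figure D5:**
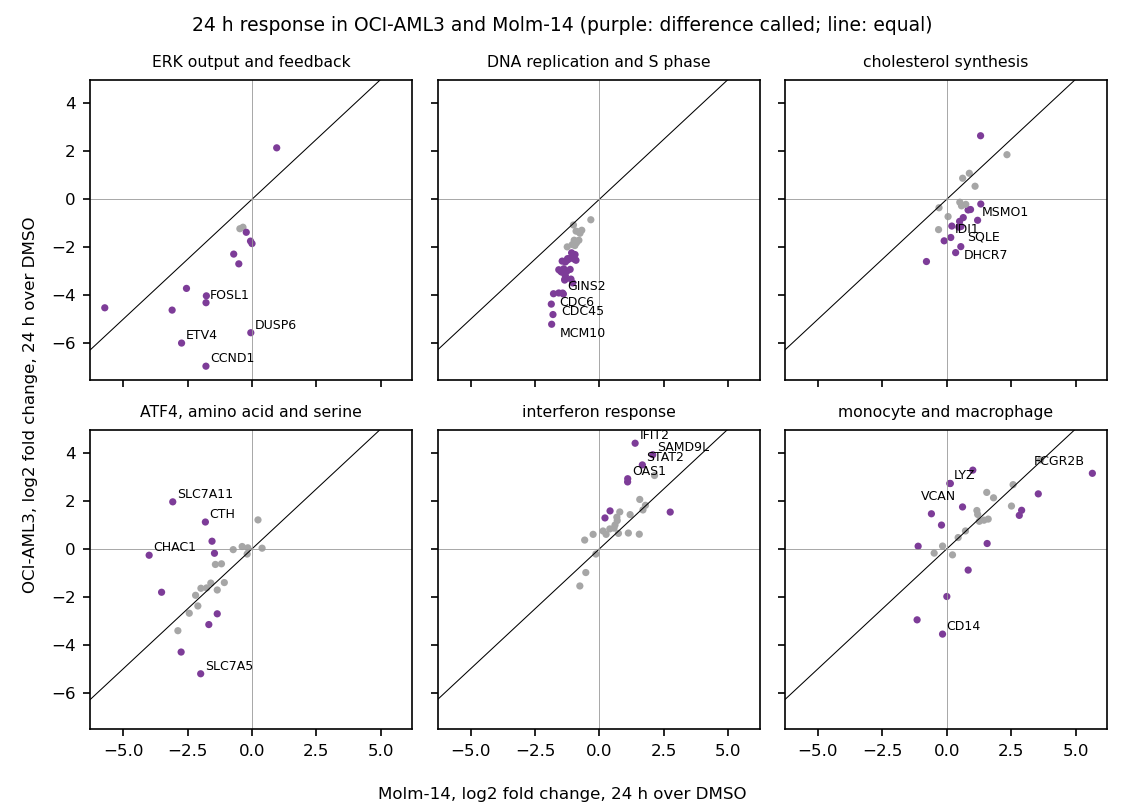
Log2 fold change of 24 h RMC-7977 over DMSO in OCI-AML3 (vertical axis) against Molm-14 (horizontal axis) for the members of 6 gene lists; each point is a gene, purple where the difference between the lines was called, and the diagonal marks equal change. Replication genes lie below the diagonal, cholesterol genes lie mostly below 0 in OCI-AML3 and above 0 in Molm-14, and SLC7A11 stands apart in the upper left of the ATF4 panel.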

How the data were processed

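Poly(A) RNA from 23 libraries was used, in the groups given by the labels; columns were matched by library name, none was left unmapped, and the third OCI-AML3 library at 24 h was not analysed here. The values deposited by the authors are log2 CPM of 13033 genes, with a lowest value of -3.26 (0.105 CPM) in all libraries, a prior of 1.96 reads at the mean library size, so fold changes of low genes are understated. Per the submitters' processing notes, the authors worked on hg38 with limma 3.38.3, edgeR 3.24.3, RSEM 1.3.3 and Trimmomatic 0.36, and also with STAR 2.7.8a and MultiQC 1.28, settings not given. Strand use in counting is not given in the sources used here. CPM per library and read equivalents were recovered from these values. Between 74.9% and 82.7% of the values at or under 20 reads differed from a whole number by 0.05 or less, so no count test was used.

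Limma 3.58.1 in R 4.3.3 was fitted with 6 group means over 23 libraries (trend and robust options), with Benjamini-Hochberg adjustment over 13033 genes. The OCI-AML3 comparisons of 24 h with DMSO and with 2 h share the 24 h libraries. On simulated data for 24 h against DMSO over 13033 genes, 100 of 100 genes changed by 1.5 and 100 of 100 changed by 3 (absolute log2) were recovered, and 2 unchanged genes were called. The changed genes were drawn from those at 5 CPM or more in DMSO, with 1 dispersion for all genes and no other changes. The simulation therefore does not cover low or highly variable genes, or a response as wide as the observed 35.4%. Named genes were the 12 largest called changes in each direction whose higher group mean reached 5 CPM, with no overlap between groups (5 for the other comparisons), up to 6 called members of each list, and a fixed set of RAS, cell cycle and apoptosis genes; read-through, antisense, clone and LOC names were left out, and other members were given by role. The members and the 36 lists were chosen with earlier results of these data known, and lists are described by counts and medians only. For genes with at most 3 reads in a group, ratios of summed reads with exact intervals, or bounds against 3 reads, are given and cover counting error only. Alternatives were other scalings, a pseudocount of 1 CPM, a filter of 5 CPM in at least 3 libraries, limma voom, other fit options, a replicate block and leaving out each library. Gene positions and promoters are from RefSeq, GRCh38.p14. Some genes that the rule names are not reported here.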

Additional observations from a re-analysis of the deposited data

Results flagged for a closer look

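In 5 of 42 DMSO groups examined by Dixon's criterion for 4 values, 1 library stood apart from the other 3. The 42 include UPK3BL2, which had 0 reads in DMSO and so no spread to test. Chance flags about 1 in 20 groups. ETV5 had 12.26 CPM and CCND1 had 65.77 CPM in DMSO replicate 2, and EGR1 had 42.13 CPM, BMF 6.338 CPM and JPH2 0.1022 CPM in DMSO replicate 1. In each case the other 3 DMSO libraries lay close together, and the 24 h libraries of these 5 genes did not overlap any DMSO library. For JPH2 the other 3 were at 0 CPM, so that any reading at all would have stood apart.

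By the limma test of the difference, the 24 h response differed between the lines in 13 of 23 genes of the fixed set. The share over all genes was 17.8%. This set was chosen with earlier results of these data known, so its count is a description. DUSP6 of this set was also among the 5 largest negative differences. Another 9 genes were named because they had the largest differences in this test, so their values are a description too. A negative difference (OCI-AML3 minus Molm-14, log2) was found for DUSP6 (-5.51), CCND1 (-5.17), TERT (-4.96), ETV4 (-3.26), FOSL1 (-2.53), ETV5 (-2.25), MYC (-1.82), PHLDA1 (-1.69), SPRY2 (-1.58) and SPRY4 (-1.52, adjusted p = 2.51e-05). It was also found for MAFA (-6.54), SLCO4A1 (-5.81), LGALS12 (-5.56) and NCF1C (-5.33). A positive difference was found for UPK3BL2 (6.98), GUCY2D (5.96), SCARA5 (5.50), SLC7A11 (5.04), HLA-DRA (4.85), CDKN1C (2.01, adjusted p = 8.81e-05), EGR1 (1.19, adjusted p = 0.000749) and BMF (1.02). PHLDA1 had a log2 fold change of -1.75 in OCI-AML3 and -0.06 in Molm-14. The fitted values of SLCO4A1, UPK3BL2 and HLA-DRA rest on groups with 0 to 3 reads and depend on the prior count, and in Molm-14 GUCY2D was listed at 0 CPM at 24 h and in DMSO.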

How the results depend on the processing

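The numbers of genes called against DMSO stayed within 1.5 times under every alternative run. They were 2375 to 2404 higher and 2216 to 2256 lower when each library was left out in turn, 2023 and 2062 with a pseudocount of 1 CPM, 2009 and 2139 with the filter, 2586 and 2048 with median-of-ratios scaling, 2459 and 2250 with limma voom, and 2889 and 1820 with library totals. Against 2 h, leave-one-out gave 1507 to 1554 higher and 1402 to 1446 lower, and library totals gave 1785 and 1205, a share of 59.7% higher against 51.6%. For the difference between lines, leave-one-out gave 1019 to 1072 positive and 1252 to 1293 negative, and library totals gave 1185 and 1130, a share of 51.2% positive against 45.3%. Same-numbered 24 h and DMSO libraries deviated together at correlations of 0.088, 0.033 and 0.084, so the numbers were not taken as pairs; a replicate block gave 2386 higher and 2228 lower, 1510 and 1416 against 2 h, and 1039 and 1265 for the difference.

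Of 223 named genes, 216 kept direction and side of the threshold against DMSO under every alternative, and none reversed. The others were BCL2L11, ERAP2, GDF15, H2AC19, COX7A2, NDUFB3 and UQCRFS1. GDF15 had a log2 fold change of -0.61 with the pseudocount and H2AC19 an adjusted p of 0.0661 without DMSO replicate 1. Against 2 h, 28 of 31 did so, and for the difference between lines 29 of 32: BMF had 0.98 to 0.99 without Molm-14 DMSO replicate 2 or OCI-AML3 DMSO replicates 2 or 3, and CDKN1C had 1.31 (adjusted p = 0.059) with voom. Of 72 counts of list members, 60 stayed within 1.5 times. Library totals moved 7 of them: 16 rises in place of 10 for lysosomes, 10 in place of 6 for autophagy, 2 in place of 1 for alpha-arrestins and for fatty acid synthesis, 1 in place of 0 for the Fanconi list, and 3 falls in place of 7 for the respiratory chain and 2 in place of 4 for chromatin modifiers.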

Other observations

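Genes of the replication-dependent histone clusters, chosen after their values were seen, were higher at 24 h in these poly(A) libraries. Of the 17 measured, 15 were called higher and 1 lower, with a median log2 fold change of 3.55, beside 18.4% of all genes called higher. Only 11 of the 17 reached 5 CPM in either group mean. Several were close to 0 in DMSO, such as H4C12 at 0.0878 CPM and H4C8 at 0.410 CPM. Genes so low in DMSO may be in the expression table only because they are high elsewhere. The 18.4% is therefore no fair background for them. In Molm-14, H2AC6 (4.30) and H2AC20 (-1.45) changed in the same direction as in OCI-AML3. H2AC6 had 150, 150 and 156 CPM at 24 h, against 3.13, 3.42, 3.30 and 2.90 CPM in DMSO. H2BC5 averaged 49.0 CPM at 24 h, and H2BC12 43.3 CPM, H4C14 30.3 CPM and H2BC21 22.6 CPM. H2AC20 was the 1 that fell, to 1.33, 1.23 and 0.830 CPM at 24 h. H2AC19 had 57.8, 56.7 and 52.0 CPM at 24 h, against 0, 5.27, 6.74 and 5.33 CPM in DMSO, and its adjusted p was 0.0661 without DMSO replicate 1. Transcripts of these genes normally end in a stem-loop without a poly(A) tail, and many are near-identical copies, so single values are uncertain. Over the same libraries 39 of 40 replication genes fell.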
